A study of Mus musculus with 2 samples.

Results

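The Rab family of small GTPases was examined in plasmacytoid dendritic cells (pDCs), the blood cell type specialised in producing type I interferon. The cells were sorted from mouse bone marrow as CD11b-negative, BST2-positive and B220-positive. The Runx2-deficient sample came from chimeras rebuilt with fetal liver cells of genotype Runx2-/-, which lack the transcription factor Runx2. The wild-type sample came from chimeras rebuilt with fetal liver cells that carry Runx2. The design text places the isolation of the marrow 2 months after reconstitution. RNA of each sample (250 ng) went onto 1 Affymetrix Mouse Gene 1.0 ST array, so there were 2 groups of 1 sample, with no replicate, no standard error and no p-value for any difference. The labels are silent on how many mice gave each sample, on their age and on host cells left in the marrow.

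Members were the genes whose symbol is Rab followed by a number and at most a letter and a digit, each measured by a probe set that carries only that symbol. This gave 59 genes of 19938 named genes, and 62 probe sets of 21789. RefSeq gene identifiers were found for all 59, with the same symbols. Proteins that merely bind or regulate a Rab were not members and are described apart. For the 3 genes with 2 probe sets, the brighter one was used.

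Rab proteins are molecular switches that give each membrane compartment of the cell its identity. A Rab is prenylated at its tail, loaded with GTP by an activator (GEF) on the right membrane, recruits effectors such as tethers and motors, and is switched off by a GTPase-activating protein (GAP). The GDP dissociation inhibitor (GDI) then extracts it and returns it to the cytosol. In pDCs, interferon leaves through the secretory pathway, and nucleic acids meet the endosomal receptors TLR7 and TLR9 in compartments that Rab proteins help to form.

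Levels are log2 probe set intensities with the wild-type array first, and a difference is the Runx2-deficient minus the wild-type log2 value. Intensities of different probe sets depend on their probes, so levels are compared between arrays and not between genes. The brightness filter is the median of all named genes, 7.61 for the wild-type array and 7.54 for the other, and a gene passed it when it reached that value on at least 1 array. Of the 59 Rab genes, 38 passed (64.4%, against 51.8% of all named genes). Rab30 passed only through the Runx2-deficient array.

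The sorted cells carried their defining transcripts on both arrays. Siglech, which marks pDCs, read 13.48 and 13.55, and the pDC factor gene Tcf4 read 13.16 and 13.11. The median difference of 10 pDC marker genes was -0.05, with 4 above 0 and 6 below. Irf7 (-0.68) was the only one past 1.5-fold, followed by Ly6d (-0.46) and Bst2 (-0.31), and the highest was Ptprc (0.13). Markers of other blood lineages went both ways, with granulocyte, erythroid and platelet genes mostly lower on the Runx2-deficient array. Below 0 were 13 of 14 granulocyte genes, with 12 of them past 2-fold, and the list's summed intensity was 18418 against 2718. Past 2-fold were 4 of 7 erythroid genes, all of them lower, with sums of 2468 and 884. The same held for 2 of 7 platelet genes, with sums of 7545 and 2452. Of 8 monocyte and macrophage genes, Ccr2 (-2.23) and Lyz2 (-1.59) were past 2-fold, while C1qb (0.89) and Csf1r (0.64) were past 1.5-fold in the other direction, and the sums were 9643 and 6350. The sums were 3057 and 3212 for 7 B cell genes, 1071 and 1064 for 7 T cell genes, and 1187 and 1348 for 8 basophil and mast cell genes. In the last list Kit, the stem cell factor receptor gene, was at 7.63 and 9.18, the only marker of the 8 lists to be 2-fold higher. No marker was at 0, since the arrays have a positive floor. The Y-linked Eif2s3y was at 9.42 and 4.98, Uty at 8.48 and 5.54 and Kdm5d at 8.58 and 6.32. The X-linked Xist was at 13.06 and 13.46. The arrays thus differed in Y-linked transcripts as well as in genotype. On the wild-type array Xist and the Y-linked genes were all above the brightness filter, and on the other array only Xist was. Whether a sample mixed male and female cells was not tested. Without replicates, an effect of the sex of the cells and one of genotype cannot be told apart. In bulk samples, fewer cells of a type and less RNA per cell cannot be told apart. Runx2 itself was not analysed here, as none of the single-symbol probe sets bears its name, and the genotype could not be checked on it.

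Promoters of the 3 Rab genes furthest from 0 that have an entry in the RefSeq promoter table are shown because the deleted factor binds DNA. Each is the 250 bases before the transcription start, 5′ to 3′ on the gene's strand, in build GRCm38.p6. Capitals mark the letters TGTGGT or their complement ACCACA, the core of the Runx binding motif, searched on both strands. Rab39 lies on the minus strand at chr9:53706233-53706482, Rab1b on the minus strand at chr19:5106997-5107246 and Rab31 on the minus strand at chr17:65772753-65773002.

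Rab39: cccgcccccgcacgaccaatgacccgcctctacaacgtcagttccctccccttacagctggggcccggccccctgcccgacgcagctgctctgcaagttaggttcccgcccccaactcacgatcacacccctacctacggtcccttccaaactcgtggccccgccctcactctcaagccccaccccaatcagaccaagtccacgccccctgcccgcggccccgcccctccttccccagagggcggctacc

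Rab1b: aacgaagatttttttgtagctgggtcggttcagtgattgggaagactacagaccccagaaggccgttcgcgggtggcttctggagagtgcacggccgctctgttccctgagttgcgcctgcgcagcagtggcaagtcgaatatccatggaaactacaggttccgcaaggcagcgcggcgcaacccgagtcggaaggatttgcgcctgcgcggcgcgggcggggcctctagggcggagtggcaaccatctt

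Rab31: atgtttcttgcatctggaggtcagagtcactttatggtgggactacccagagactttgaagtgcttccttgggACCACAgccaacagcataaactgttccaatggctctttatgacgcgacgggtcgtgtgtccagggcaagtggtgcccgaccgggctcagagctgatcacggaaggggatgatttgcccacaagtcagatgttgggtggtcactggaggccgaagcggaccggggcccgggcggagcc

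The window of Rab31 holds 1 match, and those of Rab39 and Rab1b hold none. The letters G and C make up 68.8% of the Rab39 window, 60.8% of the Rab1b window and 57.6% of the Rab31 window. The 3 windows hold 18, 23 and 12 CpG dinucleotides, in the same order. Promoters on chromosome 18 were left out of all promoter counts. Among the rest, promoters were found for 48 of the 59 genes, in 60 windows. Outside chromosome 18 none was found for Rab18, Rab26, Rab27b, Rab2a, Rab30, Rab36, Rab37, Rab38, Rab44, Rab4a and Rab7b. Entries left out with that chromosome were not told apart from missing ones. Of the 60 windows, 9 held the motif (15%), against 14% of the 32851 promoter windows of this length outside chromosome 18. The 9 genes were Rab3a, Rab8a, Rab11a, Rab27a, Rab28, Rab31, Rab33a, Rab33b and Rab39b, whose differences ran from -0.46 (Rab27a) to 0.52 (Rab31). The match is a description of letters and not of a bound site. As a group, Rab promoters were richer in G and C than promoters in general, with a median of 60.2% against 52.4% and 15 CpG dinucleotides against 6.

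Most Rab transcripts were at similar levels on the arrays of both genotypes, and a single member was 2-fold apart. Rab30, a Rab of the Golgi apparatus, had an intensity of 186.3 with Runx2 and 948.4 without it. It was thus 5.09-fold higher in the Runx2-deficient sample and ranked 5th from the top among the 19938 named genes. That made 1 of 59 Rab genes 2-fold or more higher, where 0.436% of all named genes were, and 0 of 59 lower by as much, where 0.647% were.

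At a threshold of 1.5-fold, 2 members were higher (1.73% of all named genes) and 1 was lower (2.22%). The second higher one was Rab39, which works at the Golgi and at phagosomes and is known from antigen cross-presentation by dendritic cells. It was at 210.0 and 399.0 intensity units, 1.90-fold higher in the Runx2-deficient sample. The lower one was Rab1b, a Rab that carries cargo from the endoplasmic reticulum (ER) to the Golgi, at 1736 and 954.1 units, 1.82-fold lower. The other 56 members were closer than 1.5-fold, with Rab31 at 0.52 and Rab2a at -0.52 the nearest to that threshold.

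**Figure D1:**
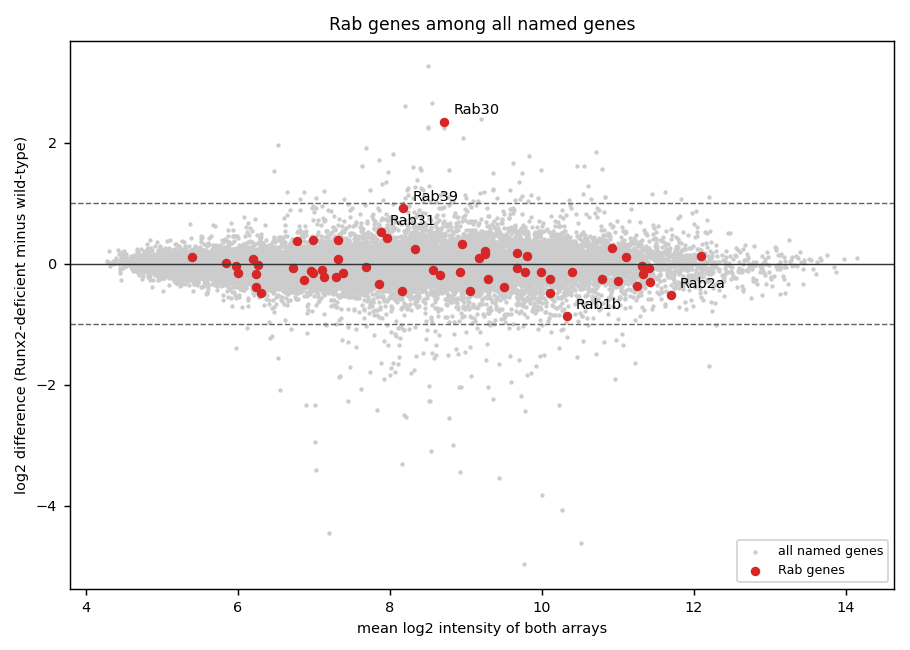
Log2 difference (Runx2-deficient minus wild-type) of each gene against its mean log2 intensity over both arrays, for all 19938 named genes (grey) and the 59 Rab genes (red). Dashed lines mark 2-fold. Rab30 lies above the upper line at 2.35, and the other Rab genes lie inside both lines.

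The remaining Rab genes leaned slightly below 0. Of the 59, 38 were lower and 21 higher on the Runx2-deficient array (64.4% below 0, against 56.7% of all named genes). The median difference was -0.10, against -0.03 for all named genes, with quartiles of -0.25 and 0.12. When each array was centred on its own median, 31 of the 59 were below 0 (52.5%), against 41.8% of all named genes, so the sign count depends on the scaling. A difference of under 0.5 was seen in 91.5% of Rab genes and 94.2% of all named genes.

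**Figure D2:**
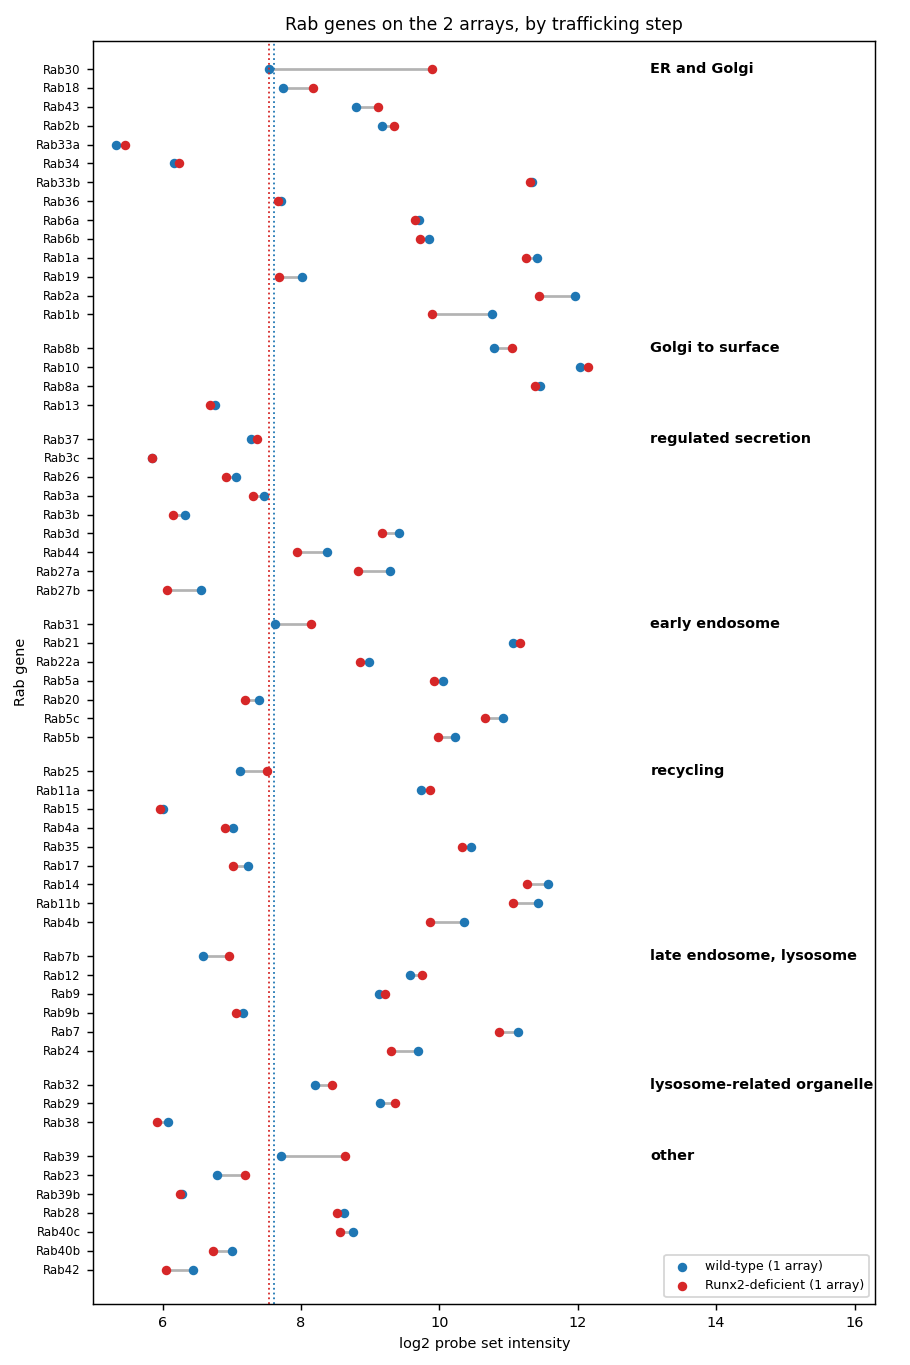
Log2 intensity of each of the 59 Rab genes with Runx2 (wild-type, blue) and without it (Runx2-deficient, red), 1 array each, grouped by trafficking step and sorted by difference within a step. Dotted lines mark the brightness filter of each array. The longest bar is that of Rab30, from 7.54 to 9.89, and intensities are not comparable between genes.

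The early secretory pathway, from the ER to and within the Golgi, held the extremes in both directions. Of its 14 measured Rab genes, 6 were above 0 and 8 below, the median was -0.04 and 12 passed the filter. Rab30, at 7.54 and 9.89, started just below the filter in the wild-type sample, so its fold rests on a dim denominator. On the same arrays the markers Kit, C1qb and Csf1r were higher by 1.55, 0.89 and 0.64. In the basophil and mast cell list, which holds Kit, 5 of 8 genes were below 0 and the median was -0.19. In that list 5 genes did not pass the filter, so their signs carry little weight. In the monocyte and macrophage list, which holds C1qb and Csf1r, 5 of 8 were below 0, the median was -0.33 and 2 did not pass. The granulocyte list had a median of -1.95. The part of other cell types in the level of Rab30 was not tested. Rab18, which acts at the ER and lipid droplets, was at 7.74 and 8.17, a difference of 0.43.

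Rab1b was at 10.76 and 9.90, while its close relative Rab1a, which serves the same ER to Golgi step, was at 11.42 and 11.26. Their differences were -0.86 and -0.16, and Rab1b ranked 178th from the bottom of all named genes. Rab2a, of the retrieval route between Golgi and ER, was at 11.96 and 11.44, a difference of -0.52, and its second probe set gave -0.36. Its relative Rab2b differed the other way, by 0.16. In both pairs the member with the larger difference was lower without Runx2, and Rab1a was slightly lower too. Rab43, a Golgi Rab known from cross-presentation, was at 8.79 and 9.12, and Rab19 at 8.02 and 7.69. The other 6 members of this step, Rab6a and Rab6b of retrograde Golgi traffic, Rab33b of autophagy, Rab33a, Rab34 and Rab36, lay between -0.13 and 0.12.

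Rab genes of transport from the Golgi to the cell surface were nearly equal. Rab8b was at 10.79 and 11.06, Rab8a at 11.45 and 11.38, Rab10 at 12.03 and 12.16, and Rab13, a junctional Rab that did not pass the filter, at 6.76 and 6.69. The largest difference of these 4 genes was 0.26 (Rab8b), and their median was 0.03.

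Every Rab gene of regulated secretion lay within 1.5-fold, as did 19151 of all 19938 named genes. Of these 9 genes, 7 were below 0 (77.8%, against 56.7% of all named genes), the median was -0.17 (-0.03 for all), and 6 did not pass the filter. Rab27a, which docks secretory lysosomes and granules at the plasma membrane, was at 9.28 and 8.83, a difference of -0.46. Its relative Rab27b differed by -0.49 at levels that did not pass the filter (6.55 and 6.06). Rab44, a large Rab of granule-bearing blood cells, was at 8.38 and 7.94. Rab3d, a granule Rab of exocrine and mast cells, was at 9.41 and 9.17. On the same arrays 13 of 14 granulocyte genes were below 0, with a median of -1.95, and their part in the values of these granule Rabs was not tested. The synaptic Rab3a, Rab3b and Rab3c, and Rab26 and Rab37, were all below the filter and lay between -0.17 and 0.08.

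In the early endosome, the 3 Rab5 genes, which drive fusion of incoming vesicles, were all slightly lower without Runx2. Rab5a was at 10.06 and 9.92, Rab5b at 10.23 and 9.98, and Rab5c at 10.92 and 10.67. Rab31, which carries cargo between the trans-Golgi network and endosomes, was at 7.62 and 8.15, the one early endosomal member above 0.5. Rab21, a Rab of integrin traffic, differed by 0.11, Rab22a by -0.13 and the phagosomal Rab20 by -0.21 at levels below the filter. The median of these 7 genes was -0.14.

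Each of the 9 recycling Rab genes also lay within 1.5-fold, with 7 below 0 (77.8%, against the same 56.7%) and a median of -0.13. Rab4b, of rapid recycling, was at 10.36 and 9.87, a difference of -0.49. Its relative Rab4a did not pass the filter and differed by -0.11. Rab11b, a marker of the recycling endosome, was at 11.43 and 11.07 (-0.36), but its dimmer probe set gave 0.24, so its direction depends on the probe set. Rab11a was at 9.74 and 9.87. Rab14, which links the Golgi with endosomes, was at 11.57 and 11.27, and Rab35, of rapid recycling at the surface, at 10.46 and 10.33. Rab15, Rab17 and Rab25, of which the latter 2 are epithelial Rabs, were below the filter, with Rab25 at 7.12 and 7.51.

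Late endosomal and lysosomal Rab genes differed in both directions, with 3 of 6 above 0 and a median near 0 (-0.002). Rab7, the switch for maturation of late endosomes and phagosomes, was at 11.14 and 10.87. Rab7b, a different gene that dampens TLR signals in macrophages, was at 6.58 and 6.97, below the filter on both arrays. Rab24, linked to autophagy, was at 9.69 and 9.31. Rab12, of transport to the lysosome, differed by 0.17, and Rab9 and Rab9b, of the route from late endosomes back to the Golgi, by 0.10 and -0.10.

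Rab32 and Rab29 of lysosome-related organelles, the former known from host defence, differed by 0.24 and 0.22, and Rab38, a pigment organelle Rab, by -0.16 at levels below the filter. Of the 7 genes outside these steps, Rab39 was at 7.71 and 8.64, a difference of 0.93 that ranked 103rd from the top of all named genes. Rab39b was below the filter, at 6.28 and 6.26. Rab23, a regulator of Hedgehog signalling in the cilium, was at 6.79 and 7.19, below the filter. Rab42, Rab40b, Rab40c and the ciliary Rab28 were lower by small amounts, with differences between -0.38 and -0.10.

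**Figure D3:**
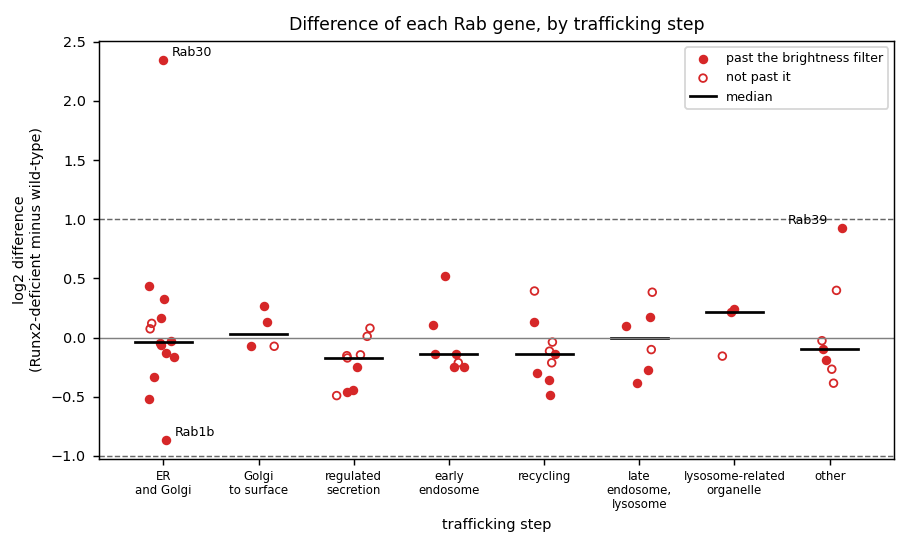
Log2 difference (Runx2-deficient minus wild-type) of each Rab gene, by trafficking step. Filled points passed the brightness filter, open points did not, bars are medians and dashed lines mark 2-fold. Rab30, Rab39 and Rab1b stand furthest from 0, and all other Rab genes lie within 1.5-fold.

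Close relatives within a subfamily did not always differ alike. Of 14 groups of Rab genes that share a number, with 31 members in all, 8 held members on both sides of 0. No such share was computed for groups of other genes, and the count depends on the scaling. With median centring Rab8a (0.004), Rab33b (0.05) and Rab39b (0.05) were above 0 like their relatives. Rab6a (0.01) and Rab6b (-0.05) then lay on opposite sides. The gap between the highest and the lowest member was over 0.5 in 4 groups, and its median was 0.30. The widest gap was that of Rab39 and Rab39b, 0.95, followed by Rab1a and Rab1b (0.70), Rab2b and Rab2a (0.68), and Rab7b and Rab7 (0.66). In the Rab39 and Rab7 pairs 1 member did not pass the filter. Rab27a and Rab27b, at -0.46 and -0.49, and Rab6a and Rab6b, at -0.07 and -0.13, were the closest pairs. Whether near-identical relatives shared signal on their probes was not tested. The RefSeq promoter table places Rab9, Rab9b, Rab33a and Rab39b on the X chromosome, and these 4 genes lay between -0.10 and 0.12.

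**Figure D4:**
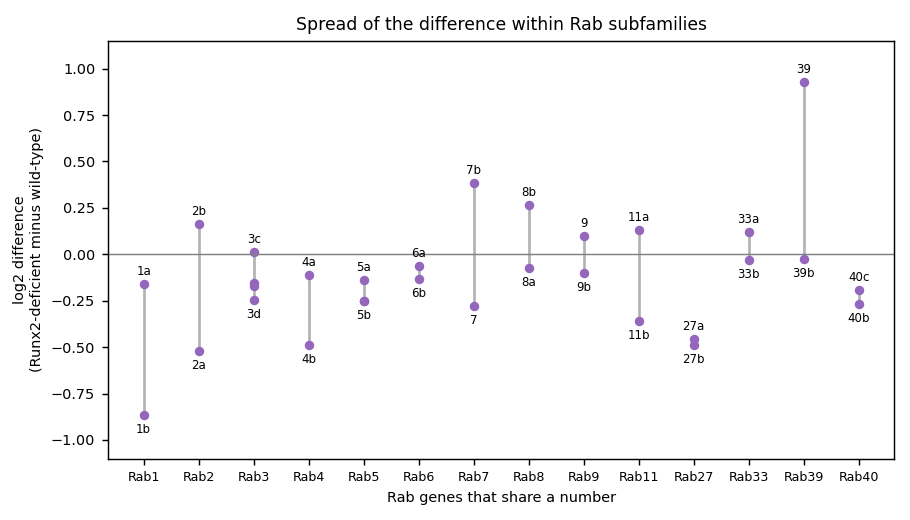
Log2 difference (Runx2-deficient minus wild-type) of Rab genes that share a number, 1 column per subfamily, with the highest and lowest member labelled. The line joins the members. Rab39 and Rab39b are 0.95 apart, and Rab27a and Rab27b 0.03.

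The proteins that run the Rab cycle were read from a separate list of 120 genes, of which 114 were measured and 98 passed the filter. Of the 114, 1 was higher by 2-fold or more and 0 were lower by as much, with 0.436% and 0.647% of all named genes. The median was -0.01, with 54 genes above 0 (47.4%) and 59 below. Above 0 were 42.6% of all named genes and 47.8% of the named genes past the filter. The filter passed 86% of the 114 and 51.8% of all named genes. Activators had a median of 0.11, with 19 of 32 above 0 (59.4%). GAPs had a median of -0.04, with 14 of 35 above 0 (40%), and effectors one of -0.05, with 16 of 40 above 0 (40%). The 7 genes listed under prenylation and GDI had a median of 0.22, with 5 above 0 (71.4%). That list includes Rabif (0.22) and Rabac1 (0.17), which are neither prenylation enzymes nor GDIs. With median centring 69 of the 114 were above 0, so these sign counts depend on the scaling.

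Sbf2, which encodes a DENN-domain protein of the myotubularin family, was the activator 2-fold apart, at 7.87 and 9.16 (2.44-fold higher without Runx2). Dennd5b, whose protein belongs to a DENN family that activates Rab39, was at 8.27 and 8.93 on its brighter probe set, and its dimmer one gave 1.42. Dennd4a, an activator of Rab10, was at 10.57 and 11.22 on its brightest probe set, and all 9 of its probe sets were above 0, from 0.06 to 0.74. Dennd2d, an activator of Rab9 proteins, was at 9.51 and 8.78, the lowest difference of the list at -0.73. Mical1, an effector that acts on actin, differed by -0.58, and Rin3, an activator of the Rab5 group, by -0.46. The prenylation genes were picked after their values were seen. Rabggtb, the catalytic subunit of the transferase that prenylates Rabs, differed by 0.46 and its partner subunit Rabggta by -0.08. The escort protein genes Chm and Chml differed by 0.24 and 0.39, and Gdi2 by -0.32.

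**Figure D5:**
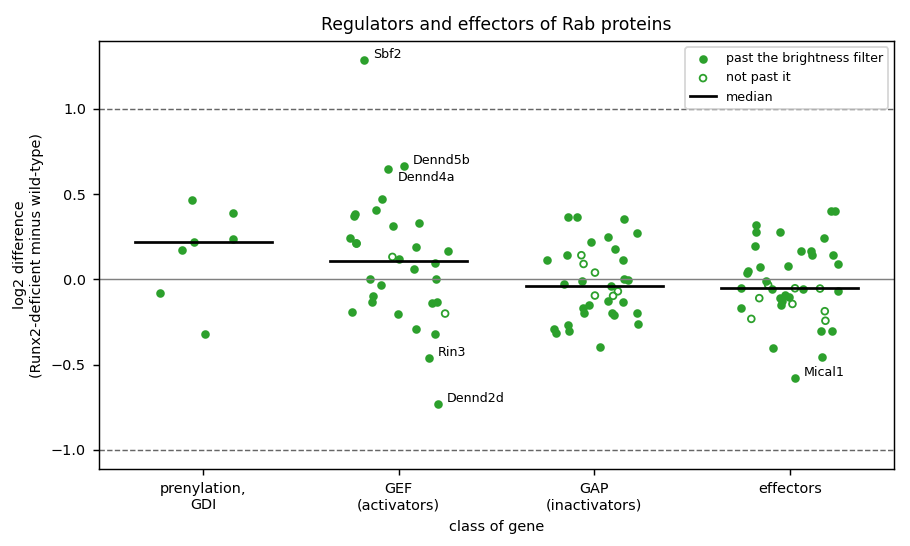
Log2 difference (Runx2-deficient minus wild-type) of 114 regulators and effectors of Rab proteins, by class. Filled points passed the brightness filter, open points did not, bars are medians and dashed lines mark 2-fold. Sbf2 lies above the upper line, and no gene lies below the lower one.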

How the data were processed

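Transcripts were measured on 1 Affymetrix Mouse Gene 1.0 ST array per genotype. The deposited values are linear probe set intensities, from 15.3 to 20364, which the authors made with RMA, per the submitters' processing notes. RMA corrects background, equalises the arrays and summarises probes, and it compresses differences of dim probe sets. The labels name no software version and no annotation. Column medians were 182.9 (wild-type) and 181.7 units, and the number of arrays limits the precision. Values were taken to log2 and subtracted. Gene names come from the platform annotation, which can be old: of 35556 probe sets, 21789 have 1 symbol, 1621 several and 12146 none, and only the first kind was used. The brightest probe set stood for a gene.

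The Rab genes, their trafficking steps and the other lists were chosen with earlier results of these data known. Named genes were those at least 1.5-fold apart, the 2 furthest from 0 in each direction of a step and their lettered relatives; of the regulators, those 2-fold apart and the 3 furthest from 0 in each direction past the filter. Further Rab genes and the prenylation genes were named after their values were seen, as were the Y-linked genes and Xist. Alternatives were median centring, a loess correction (span 0.3), an offset of 50 units, the mean of probe sets, filters on 1 or both arrays, and a 1.5-fold threshold. The script was tested on simulated data. The loess fit used statsmodels 0.14.6, the figures matplotlib 3.10.9 and the rest pandas 2.3.3 with numpy 2.4.6, in Python 3.11.15.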

Additional observations from a re-analysis of the deposited data

How the results depend on the processing

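Of 311 single Rab differences recomputed under the alternatives, 299 kept their sign and their side of 2-fold. The other 12 crossed 0 or 2-fold by small amounts, Rab39 among them, at 1.0 after median centring. Much of the agreement was fixed in advance. The filters only leave genes out, and the mean of probe sets can move only the 3 Rab genes with 2 probe sets. The rest could move only under median centring, loess or the offset. Rab30 ran from 2.08 to 2.42. The count of Rab genes at least 2-fold higher was 1, and 2 with median centring, 2 at 1.5-fold and 0 with the filter on both arrays, which Rab30 does not pass. The count lower was 0, and 1 at 1.5-fold. Rab genes below 0 were 38, and 24 with the filter on 1 array and 24 on both, where fewer genes enter. The regulator count higher was 1, 2 with the mean of probe sets, where Dennd5b enters, and 3 at 1.5-fold, and the count lower went from 0 to 1 at 1.5-fold. The regulator median of -0.0106 was 0.0653 with median centring, 0.00772 with loess, 0.00257 with the filter on 1 array and 0.00209 on both. No paired analysis was possible because each group has 1 sample, and no test could be run.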
